A study of Sus scrofa with 12 samples.

Results

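The comparison described here is that of left ventricles from pigs with untreated heart failure and from lean pigs. It uses 8 of the 12 animals in the series, 4 in each group, chosen by the treatment named in the sample labels. All animals were female Ossabaw pigs, a strain used as a model of obesity, and all were wild type. The 4 heart failure animals (HF saline) ate a high-fat diet that began at 2 months of age, underwent aortic banding, in which a band around the aorta makes the left ventricle pump against a higher pressure, and were given saline. Their hearts were taken 6 months later. The 4 chow control animals ate normal chow and had neither banding nor a vector. The other 4 animals (HF KBD) had the same diet and banding and received 8e12 vector genomes per kg of an adeno-associated virus vector coding for a peptide, the kinase binding domain of AKAP6, an anchoring protein; they enter here only through the shared estimate of spread and as values set beside those of the saline group. Diet and banding were always given together, and the control animals are not described as having had sham surgery. The parts played by obesity, pressure load and surgery therefore cannot be told apart. The age of the animals at collection is not given in the sources used here.

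The series models heart failure with preserved ejection fraction, in which the ventricle empties normally but is stiff and fills poorly. The healthy heart muscle cell gets most of its energy by burning fatty acids in mitochondria. Under mechanical load it is known to release natriuretic peptides, to return to genes of the fetal heart and to sit in a matrix that gains collagen. Interferons are signalling proteins that switch on a large set of antiviral genes in almost any cell type.

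RNA was read by poly(A) RNA sequencing of 1 library per animal. Values are CPM, the counts per 1e6 counts of the library after scaling by TMM factors. They are not divided by gene length, so levels are compared between animals and not between genes. The 8 libraries held from 7721638 to 12637958 counts, and from 17503 to 18138 genes had at least 1 count in a library. All 8 had 0 counts for the vector, while the 4 HF KBD libraries had from 242 to 712. Heart muscle genes were abundant in every library: the 8 tested cardiomyocyte markers summed to between 39072 and 43831 CPM in chow control and between 39482 and 50199 CPM in HF saline animals, with MYL2, the ventricular myosin regulatory light chain, at 12752 ± 1348 and 13996 ± 1769 CPM (SD, n = 4 each). The cardiomyocyte markers MYH7 and TTN had no matched identifier. Markers of fast skeletal muscle were at or near 0, with MYH1, MYH4, MYOD1 and TNNT3 at 0 counts in all 8 animals.

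HF saline replicate 1 stood apart from the other 3 animals of its group. Its 10 most abundant genes took 22.6% of the counts where the other 3 had from 21.0% to 21.2%, its TMM factor was 0.937 against 1.02 to 1.03, and on component 1 of a principal component analysis of log2 CPM, which carried 17.8% of the variance, it lay at -11.3 where the others lay between 13.9 and 14.7. The chow control animals spread from -39.3 to 7.68 on that component. The number of genes that passed and the medians of the interferon, fatty acid, matrix and stress lists are therefore also given without this animal.

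Of 13476 genes tested, 35 differed between HF saline and chow control (edgeR's quasi-likelihood test, p under 0.05 after Benjamini-Hochberg adjustment), which is 0.260% of those tested. The 23 that were higher in HF saline make up 0.171% and the 12 that were lower 0.0890% of all tested genes. A gene symbol could be assigned to 29 of them, 18 higher and 11 lower. An unadjusted p under 0.05 was reached by 1592 genes (11.8%), of which 770 were higher (5.71%) and 822 lower (6.10%). Without a test, 469 genes (3.48%) had all 4 HF saline animals above all 4 chow controls and 430 (3.19%) had all 4 below. The log2 fold change was above 0 in 49.5% of the tested genes, and its median was -0.00240. These shares are the background for each gene group below.

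Single animals moved the number of genes that passed. It became 72 without HF saline replicate 1, with 30 of the 35 among them. It fell to 3 without chow control replicate 2 and to 3 without HF saline replicate 4, to 9 without chow control replicate 3 and to 9 without HF saline replicate 3, and to 16 without chow control replicate 4. Of the 35 genes, 2, the interferon response genes HERC5 and IFIT5, passed in every one of 14 other fits, among them the 8 that each left out an animal. For the other genes the number of those 8 fits in which the gene still passed is given with its values.

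**Figure D1:**
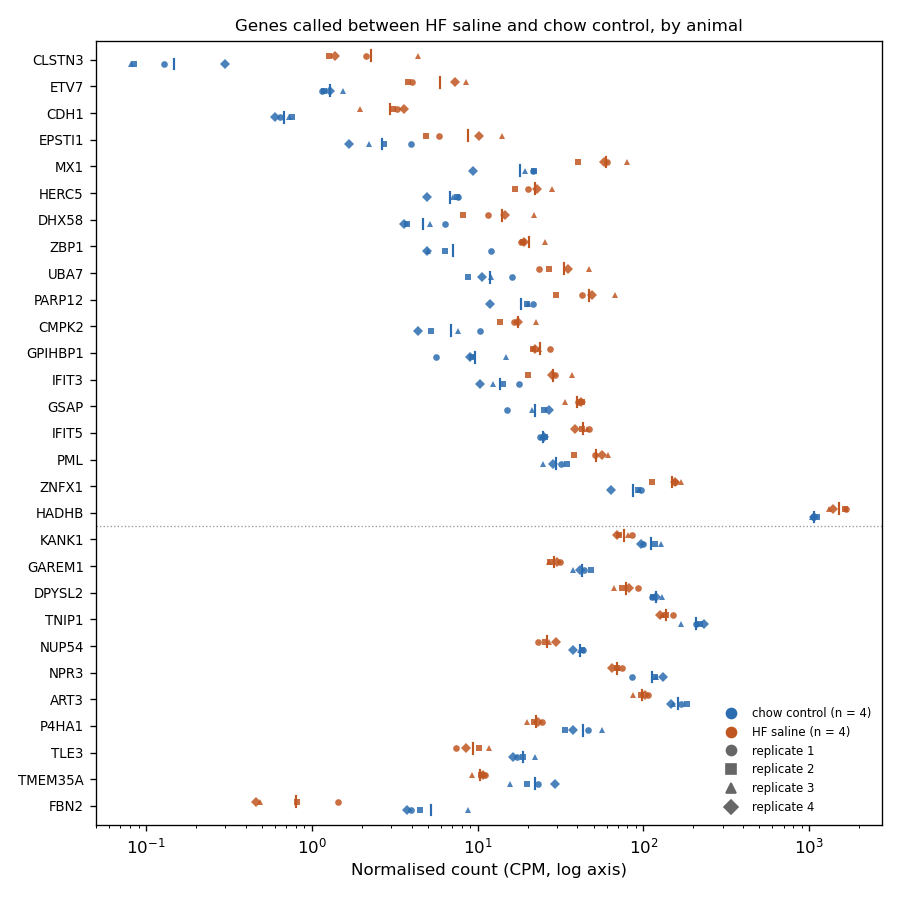
Normalised counts (CPM, log axis) of the 29 called genes that have a symbol, in the 4 chow control (blue) and 4 HF saline (orange) animals; each point is an animal, its shape the replicate number, and the vertical bar the group mean. Genes above the dotted line were higher in HF saline and those below it lower, and within each gene the points of the groups do not overlap, as in HADHB with 1033 to 1109.9 CPM in chow control and 1322 to 1673 CPM in HF saline.

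Among the gene groups, the interferon response held the most genes that rose in HF saline hearts. Of 31 genes on the interferon response list, 30 could be tested (OAS1 had too few counts). Of these, 5 rose (HERC5, IFIT5, MX1, IFIT3 and CMPK2) and 0 fell, where 0.171% of all tested genes rose. With the DESeq2 Wald test, which called 262 genes in all, 20 members were higher and 1 was lower. With limma-voom 5 were higher, and in the model of the 2 groups only, which called 6 genes in all, 2 were (HERC5 and IFIT5). At an unadjusted p under 0.05, 24 of the 30 were higher and 1, IRF1, was lower, beside 5.71% and 6.10% of all genes. The groups did not overlap in 16 genes that were higher and in 1 that was lower, beside 3.48% and 3.19% of all genes. The log2 fold change was above 0 in 29 of the 30, and its median was 0.94. The CPM of the listed genes summed to between 590.4 and 754 in the chow control animals and to between 944 and 1607 in the HF saline animals.

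HERC5, the enzyme that attaches the ubiquitin-like protein ISG15 to other proteins, had the smallest p-value of all genes. Its gene lies on chromosome 8 at 130532256 to 130591158 (Sscrofa11.1). The chow control animals, in the order of replicates 1 to 4, had 7.66, 7.53, 7.08 and 4.96 CPM, and the HF saline animals 20.2, 16.9, 28.2 and 22.8 CPM. The lowest HF saline animal, replicate 2, was well above the highest chow control, replicate 1. HERC5 rose 3.23-fold, a log2 fold change of 1.69 ± 0.172 (SE, edgeR, adjusted p = 0.00176).

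IFIT5, which binds RNA that carries the 5′ triphosphate end of viral transcripts, varied little within each group. It had 23.9, 25.3, 24.5 and 25.1 CPM in the chow control animals and 46.9, 42.8, 45.5 and 38.7 CPM in the HF saline animals. The spread within either group was small beside the gap between them. IFIT5 rose 1.76-fold (log2 fold change 0.81, standard error 0.0997, edgeR adjusted p = 0.00793).

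MX1, a dynamin-like GTPase that traps viral particles, lies on chromosome 13 at 204843049 to 204868927. It had 21.7, 21.8, 19.4 and 9.32 CPM in chow control and 60.2, 40.3, 79.7 and 58.2 CPM in HF saline. Chow control replicate 4 was the lowest and HF saline replicate 3 the highest animal, and the groups did not overlap. Its 3.304-fold rise (log2 fold change 1.72, standard error 0.249, edgeR adjusted p = 0.0224) passed in 4 of the 8 fits that left out an animal. The neighbouring gene MX2 had 37.3, 75.5, 45.2 and 31.04 CPM in chow control and 96.8, 88.9, 109.7 and 100.2 CPM in HF saline, a 2.09-fold difference that missed the threshold (adjusted p = 0.0765). MX2 passed in 1 of the 8 fits that left out an animal.

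IFIT3, a partner of the other IFIT proteins, had 17.9, 14.2, 12.4 and 10.3 CPM in chow control and 29.1, 20.1, 36.9 and 28.1 CPM in HF saline animals. It rose 2.09-fold (adjusted p = 0.0427), and CMPK2, an interferon-induced nucleotide kinase of mitochondria, rose 2.57-fold (adjusted p = 0.04504). CMPK2 had 10.3, 5.25, 7.57 and 4.36 CPM in chow control and 16.5, 13.6, 22.5 and 17.5 CPM in HF saline. Both genes were lowest in chow control replicate 4 and highest in HF saline replicate 3, and both passed in 3 of the 8 fits that left out an animal.

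OASL, a relative of the oligoadenylate synthetases, had 0 counts in all 4 chow controls and is named for that reason, after its values were seen. The HF saline animals had 1.91, 0.1805, 6.59 and 2.02 CPM. Against a floor of 3 counts over the chow control group, or 0.0713 CPM, the HF saline mean of 2.68 CPM was at least 37.5-fold higher. This bound allows for the 0 counts of the controls but not for the wide spread of the HF saline animals. The gene did not pass the test (adjusted p = 0.199), and the median of the list is also 0.94 with OASL placed at this bound.

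IRF1, a transcription factor that immune signals induce, went the other way and was likewise picked out after its values were seen. It had 20.2, 62.2, 22.1 and 60.1 CPM in chow control and 16.8, 8.84, 18.7 and 18.7 CPM in HF saline. Chow control replicates 2 and 4 were high, and replicates 1 and 3 lay just above the highest HF saline animal. Its log2 fold change was -1.39 ± 0.398 (SE, edgeR adjusted p = 0.194).

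The animals differed among themselves in a way that most of the interferon list shared. HF saline replicate 3 was the highest of its group in 21 of the 30 genes and HF saline replicate 2 the lowest in 19. In the chow control group replicate 4 was the lowest animal in 19. The median of the list was 0.796 without HF saline replicate 3 and 0.817 without chow control replicate 4, was 1.11 without HF saline replicate 2, and was 0.954 without HF saline replicate 1. The number of list members that passed ranged from 2 to 8 over the fits that left out an animal, and the number higher at an unadjusted p under 0.05 ranged from 23 to 25.

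**Figure D2:**
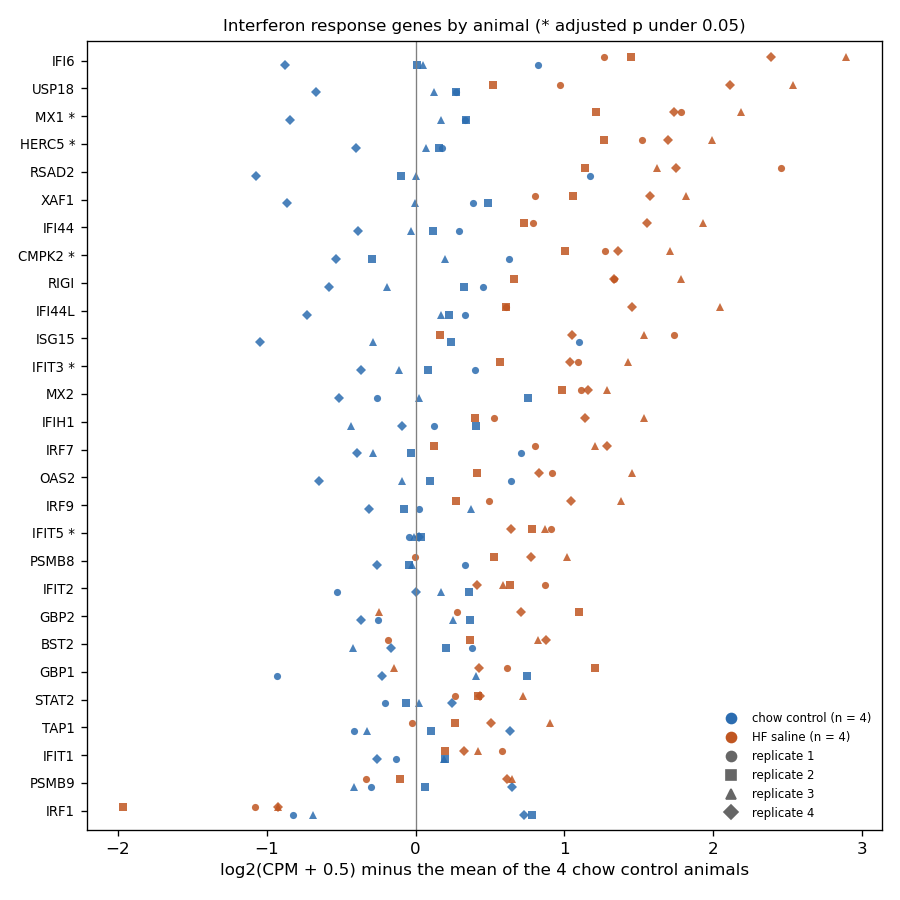
The interferon response genes by animal, as log2(CPM + 0.5) minus the mean of the 4 chow control animals (blue, chow control; orange, HF saline; point shape, replicate number), ordered by the edgeR log2 fold change, with an asterisk where the gene passed. OASL, with 0 counts in all chow controls, and 1 member that is not reported here are left out; HF saline replicate 3 (triangles) is at the right of most rows, chow control replicate 4 (blue diamonds) at the left, and IRF1 is the row with the HF saline animals to the left of 0.

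Markers of T and NK cells, which both make and answer interferon, are given beside this result. Of 9 listed markers with an identifier 7 were tested and 0 passed, with a median log2 fold change of 0.65. At an unadjusted p under 0.05, 3 (CD2, CD3E and CD8A) were higher, beside 5.71% of all genes. CD3E, a subunit of the T cell receptor complex, had 0.766, 0.254, 0.0814 and 0.793 CPM in chow control and 1.34, 1.08, 1.94 and 2.02 CPM in HF saline (adjusted p = 0.2398). CD2, an adhesion molecule of T and NK cells, had 1.404, 1.69, 1.14 and 0.893 CPM in chow control and 1.15, 2.71, 7.56 and 5.32 CPM in HF saline (adjusted p = 0.181). CD2 passed in 1 of the 8 fits that left out an animal. The 9 markers summed to between 10.5 and 15.2 CPM in chow control and to between 9.77 and 36.5 CPM in HF saline, with HF saline replicates 3 and 4 highest. Without HF saline replicate 3 the median of these markers was 0.166. Their part in the interferon result was not tested.

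The other named genes that rose stand outside the interferon list. That list holds only part of the large set of genes that interferons switch on. Standing outside it does not tell whether a gene belongs to that set. ETV7, a transcription factor of the ETS family, had 1.15, 1.19, 1.55 and 1.29 CPM in chow control and 4.02, 3.79, 8.53 and 7.33 CPM in HF saline, a 4.52-fold rise (adjusted p = 0.01803) that passed in 6 of the 8 fits that left out an animal. UBA7, the enzyme that activates ISG15 for attachment, had 16.2, 8.72, 12.04 and 10.6 CPM in chow control and 23.5, 27.1, 46.7 and 34.9 CPM in HF saline, a 2.796-fold rise (adjusted p = 0.0224, 4 of 8 fits). With HERC5, UBA7 belongs to the pathway that tags proteins with ISG15. ISG15 itself, picked after its values were seen, was at 11.12 ± 7.21 CPM in chow control and 23.2 ± 9.79 CPM in HF saline (SD, n = 4 each) and did not pass (adjusted p = 0.407).

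Another 3 of the genes that rose bind nucleic acid or regulate proteins that do. ZBP1, which binds left-handed nucleic acid, had 11.998, 6.35, 5.05 and 4.96 CPM in chow control and 18.3, 18.7, 25.6 and 19.1 CPM in HF saline, and rose 2.92-fold (adjusted p = 0.0224, 3 of 8 fits). DHX58, a regulator of the RNA sensors of the RIG-I family, rose 3.001-fold from 6.38, 3.72, 5.13 and 3.57 CPM to 11.6, 8.12, 21.8 and 14.6 CPM (adjusted p = 0.0498, 3 of 8 fits). ZNFX1, a helicase that binds viral RNA, rose 1.71-fold from 96.4, 92.4, 93.5 and 63.6 CPM to 155, 113, 168 and 155 CPM (adjusted p = 0.0418, 3 of 8 fits). In each of these 3 genes the HF saline animals lay above every chow control.

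PARP12, an ADP-ribosyltransferase, rose 2.58-fold, with 21.4, 19.8, 20.02 and 11.9 CPM in chow control and 42.4, 29.9, 67.3 and 48.96 CPM in HF saline (adjusted p = 0.0418, 3 of 8 fits). PML, the scaffold protein of PML nuclear bodies, rose 1.73-fold, with 31.7, 34.5, 24.7 and 28.5 CPM in chow control and 51.1, 38.3, 60.9 and 56.1 CPM in HF saline (adjusted p = 0.0498, 1 of 8 fits). EPSTI1 rose 3.34-fold from 2.64 ± 0.974 CPM to 8.71 ± 4.19 CPM (SD, n = 4 each, adjusted p = 0.0499, 3 of 8 fits). It stands outside the rule for named genes, which takes 15 higher genes. In PARP12, PML, EPSTI1, ZNFX1 and DHX58 HF saline replicate 3 was highest and replicate 2 lowest of the HF saline animals.

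The remaining genes that rose have other roles. GSAP, an activator of the gamma-secretase protease, had 14.9, 25.2, 21.3 and 26.8 CPM in chow control and 40.3, 42.6, 33.5 and 42.3 CPM in HF saline, a 1.79-fold rise (adjusted p = 0.0438, 3 of 8 fits). Unlike most of the interferon genes it was lowest in HF saline replicate 3. CLSTN3, a calsyntenin, and CDH1, the adhesion protein E-cadherin, passed at under 5 CPM in both groups and are named although the rule leaves them out. CLSTN3 had 0.148 ± 0.102 CPM in chow control, with 1 count in the lowest animal, and 2.28 ± 1.44 CPM in HF saline (SD, n = 4 each, adjusted p = 0.01898, 6 of 8 fits). CDH1 had 0.682 ± 0.0783 CPM in chow control and 2.96 ± 0.712 CPM in HF saline (SD, n = 4 each, adjusted p = 0.0224, 4 of 8 fits). Another 5 genes that rose and 1 that fell have no symbol.

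Genes of fatty acid uptake and oxidation had log2 fold changes mostly above 0, and HADHB rose. Of 29 tested genes 1, HADHB, rose and 0 fell. At an unadjusted p under 0.05, 13 were higher and 1 was lower, beside 5.71% and 6.10% of all genes, and in 12 genes all HF saline animals lay above all controls, beside 3.48%. The log2 fold change was above 0 in 26 of the 29 and its median was 0.24. This median ranged from 0.193, without chow control replicate 1, to 0.315, without chow control replicate 4, and was 0.226 without HF saline replicate 1. HADHB did not pass in any of the 8 fits that left out an animal. The DESeq2 Wald test called 5 members of this list, all higher, while limma-voom and the model of the 2 groups only called 0.

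HADHB, the beta subunit of the trifunctional protein that carries out the last steps of each round of oxidation, lies on chromosome 3 at 112712894 to 112753121. It had 1053, 1109.9, 1033 and 1070.2 CPM in chow control and 1673, 1636, 1322 and 1391 CPM in HF saline. The control animals differed little, and the lowest HF saline animal was above all of them. HADHB rose 1.41-fold (log2 fold change 0.50, standard error 0.0918, edgeR adjusted p = 0.0474). HADHA, the alpha subunit of the same protein, was picked after its values were seen. It had 659, 1157, 1058 and 794 CPM in chow control and 1143, 1022, 1089 and 833 CPM in HF saline. The groups overlapped in HADHA, and it did not pass (1.11-fold, edgeR adjusted p = 0.76).

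Other members of this list did not pass. FABP3, the fatty acid carrier of the heart muscle cytosol, had 769, 801, 654 and 785 CPM in chow control and 1090.0, 920.0, 926 and 1026 CPM in HF saline (1.32-fold, adjusted p = 0.128). CPT2, which hands fatty acids over inside the mitochondrion, had 56.2, 63.1, 54.9 and 50.98 CPM in chow control and 69.1, 69.5, 82.7 and 75.4 CPM in HF saline (1.32-fold, adjusted p = 0.129). CPT1B, the main heart form of the enzyme that gates entry into the mitochondrion, had 639 ± 40.7 CPM in chow control and 643 ± 40.7 CPM in HF saline (SD, n = 4 each, adjusted p = 0.98). CPT1A, another form of that enzyme, had 5.74, 27.01, 32.2 and 25.3 CPM in chow control and 51.2, 48.7, 49.2 and 53.6 CPM in HF saline. CPT1B and CPT1A were picked after their values were seen. The groups did not overlap in FABP3, CPT2 and CPT1A, and they overlapped in CPT1B. CPT1A differed 2.22-fold (adjusted p = 0.226), and without chow control replicate 1, its lowest animal, the log2 fold change was 0.85 in place of 1.15 and passed (adjusted p = 0.0292).

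Chow control replicate 1 lay apart from the other controls in several of the named genes, in either direction. PDK4, the kinase that turns off glucose oxidation, had 36.9 CPM in that animal and 2611, 1458 and 946 CPM in the other controls, while the HF saline animals had 3491, 2869, 1673 and 2765 CPM. The groups overlapped and the difference did not pass (log2 fold change 1.10, adjusted p = 0.6602). ANGPTL4, an inhibitor of lipoprotein lipase, had 9.44, 45.3, 22.9 and 34.1 CPM in chow control and 64.1, 55.8, 47.6 and 61.3 CPM in HF saline (2.03-fold, adjusted p = 0.346). ADIPOR2, an adiponectin receptor, had 91.4 CPM in chow control replicate 1, from 150.3 to 162 CPM in the other controls and from 165 to 242 CPM in HF saline (adjusted p = 0.201). PPARA, a fatty acid receptor picked after its values were seen, was highest among the controls in replicate 1, with 37.5, 13.3, 24.9 and 18.9 CPM in chow control and 19.1, 24.01, 20.3 and 18.6 CPM in HF saline (adjusted p = 0.8105).

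Lipid is delivered to heart muscle through the capillary wall. GPIHBP1, the endothelial protein that anchors lipoprotein lipase in the capillary, had 5.62, 9.23, 14.8 and 9.03 CPM in chow control and 27.2, 21.6, 23.6 and 22.3 CPM in HF saline. Every HF saline animal was above every control, with chow control replicate 3 the nearest. GPIHBP1 rose 2.42-fold (log2 fold change 1.27, standard error 0.236, edgeR adjusted p = 0.0498), and it passed in 2 of the 8 fits that left out an animal. FABP4, a fatty acid carrier of capillary endothelium and of fat cells, had 57.4, 41.7, 56.5 and 74.4 CPM in chow control and 128, 108, 130.3 and 87.00 CPM in HF saline (1.97-fold, adjusted p = 0.0844). The fat cell markers ADIPOQ and PLIN1, picked after their values were seen, were under 1 CPM on average in both groups. Of the 10 listed fat cell markers, which include FABP4, 2 were under 1 CPM in all 8 animals. The 10 summed to between 496 and 675 CPM in chow control and to between 572 and 668 CPM in HF saline. The part of fat cells in the FABP4 values was not tested. LPL, the lipase that GPIHBP1 anchors, had 1305 ± 186 CPM in chow control and 1320.1 ± 182 CPM in HF saline (SD, n = 4 each), a log2 fold change of 0.02 ± 0.1501 (SE, adjusted p = 0.981).

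The endothelial markers held no passing member. Of 9 tested, 0 passed. At an unadjusted p under 0.05, 2 were higher and 1 was lower, beside 5.71% and 6.10% of all genes. The log2 fold change was above 0 in 6 and below 0 in 3, and its median was 0.16. This median ranged from 0.0899 to 0.288 over the fits that left out an animal. TEK, the angiopoietin receptor, had 53.05 ± 9.39 CPM in chow control and 65.7 ± 4.69 CPM in HF saline (adjusted p = 0.283), and EGFL7, a matrix protein that endothelial cells secrete, had 61.5 ± 3.93 and 49.4 ± 3.76 CPM (SD, n = 4 each, adjusted p = 0.117). Since these are bulk samples, fewer cells of a type and less RNA per cell cannot be told apart here or in the other groups of markers.

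Of the 12 genes that fell, NPR3 belongs to the natriuretic peptide system. NPR3 is the clearance receptor that removes natriuretic peptides from the circulation, and it lies on chromosome 16 at 18841540 to 18929813. It had 85.3, 117, 119.6 and 131 CPM in chow control and 74.1, 69.4, 70.4 and 64.9 CPM in HF saline. The HF saline animals lay close together below the lowest control, replicate 1. NPR3 fell to 0.614 times the control level (log2 fold change -0.70, standard error 0.123, edgeR adjusted p = 0.0418), and it passed in 2 of the 8 fits that left out an animal. Of the 20 tested genes of renin-angiotensin, adrenergic and endothelin signalling, on whose list it stands, it was the 1 that passed. ACE, the angiotensin-converting enzyme, had 55.4, 71.96, 63.9 and 55.5 CPM in chow control and 40.9, 51.98, 32.6 and 47.4 CPM in HF saline (adjusted p = 0.173).

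No tested member of the list of natriuretic peptides and fetal-gene stress markers passed in either direction. MYH7, MYL7 and FHL1 of this list had no matched identifier and GDF15 had too few counts, so these genes were not tested. Of 16 tested genes of this list 0 passed, 0 were higher and 2 (ACTC1 and IGF1R) were lower at an unadjusted p under 0.05, and the median log2 fold change was -0.26. NPPA, the atrial natriuretic peptide, had 218, 185, 377 and 401 CPM in chow control and 83.01, 185, 295 and 73.5 CPM in HF saline. The groups overlapped, and its log2 fold change was -0.89 ± 0.477 (SE, adjusted p = 0.505). NPPB, the brain natriuretic peptide and a clinical marker of heart failure, was added after its values were seen. It had 1.66, 9.23, 36.3 and 13.3 CPM in chow control and 11.7, 1.17, 6.88 and 2.02 CPM in HF saline, a log2 fold change of -1.50 ± 0.8395 (SE, adjusted p = 0.523). Chow control replicate 3 had the highest NPPB level, and without it the log2 fold change was -0.59.

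ACTC1, cardiac alpha actin, had 6865, 4265, 3502 and 7577 CPM in chow control and 3479, 3026, 3725 and 3328 CPM in HF saline (log2 fold change -0.71, adjusted p = 0.234). Chow control replicates 1 and 4 were high and the other 2 close to the HF saline animals. ACTA1, skeletal alpha actin and a gene of the fetal heart, had 17320.0 ± 3043 CPM in chow control and 15436 ± 2173 CPM in HF saline (SD, n = 4 each, adjusted p = 0.774). The median of the stress list moved with single animals, from -0.438 without chow control replicate 2 to -0.150 without chow control replicate 3, and was -0.437 without HF saline replicate 1. In that animal the median lay 0.0635 above the chow control mean on the log2 scale, while in the other 3 HF saline animals it lay from -0.240 to -0.693.

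Genes of the extracellular matrix had log2 fold changes mostly below 0, and no list member passed. Of 35 tested collagens and matrix genes 0 passed in either direction, 0 were higher and 16 were lower at an unadjusted p under 0.05, beside 6.10% of all genes. In 5 of them all HF saline animals lay below all controls, beside 3.19%. The log2 fold change was below 0 in 32 of the 35, and the median was -0.30. It ranged from -0.375 to -0.267 over the fits that left out an animal, and was -0.305 without HF saline replicate 1. The DESeq2 Wald test called 4 members, all lower, and limma-voom called 0.

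POSTN, periostin, a matrix protein of activated fibroblasts, had 39.7, 17.6, 35.7 and 46.6 CPM in chow control and 9.67, 15.3, 13.3 and 12.6 CPM in HF saline (0.365 times, adjusted p = 0.118). LTBP2, a microfibril protein, had 16.2, 14.6, 12.2 and 22.7 CPM in chow control and 10.6, 7.58, 9.99 and 6.51 CPM in HF saline (0.528 times, adjusted p = 0.115). In both the groups did not overlap. Among the fibrillar collagens, COL3A1 had 1060.2, 809, 1102 and 1461 CPM in chow control and 556, 963, 699 and 721 CPM in HF saline (adjusted p = 0.192), with HF saline replicate 2 inside the control range. COL1A2 had 276, 218, 291 and 322 CPM in chow control and 167, 222, 194 and 181 CPM in HF saline (adjusted p = 0.128). COL4A1, of the basement membrane, had 495 ± 86.98 CPM in chow control and 488 ± 53.2 CPM in HF saline (SD, n = 4 each, adjusted p = 0.968).

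A pair of genes that act on the matrix and stand on no list passed in the same direction. P4HA1, the catalytic subunit of the enzyme that hydroxylates collagen chains, lies on chromosome 14 at 75827207 to 75919121. It had 46.2, 33.7, 56.2 and 37.4 CPM in chow control and 24.6, 21.8, 19.97 and 23.2 CPM in HF saline, and fell to 0.517 times the control level (log2 fold change -0.95, standard error 0.167, edgeR adjusted p = 0.0418, 1 of 8 fits). FBN2, fibrillin 2, a microfibril protein best known from development, had 3.96, 4.49, 8.79 and 3.77 CPM in chow control and 1.44, 0.812, 0.485 and 0.458 CPM in HF saline. FBN2 fell to 0.153 times the control level (adjusted p = 0.0345, 3 of 8 fits). Its lowest animal had 5 counts, and chow control replicate 3 stood above the other controls.

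Signals that drive matrix deposition were examined next. Of 23 tested genes of matrix turnover and profibrotic signalling 0 passed, with a median log2 fold change of -0.20. At an unadjusted p under 0.05, 1 was higher and 5 were lower, beside 5.71% and 6.10% of all genes. TGFBR2, a receptor of transforming growth factor beta, had 92.9, 113, 103 and 91.3 CPM in chow control and 108, 120.5, 128 and 117 CPM in HF saline (adjusted p = 0.273).

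Markers of fibroblasts, which make the matrix, and of vessel wall cells are given beside this result. Of 10 tested fibroblast markers 0 passed, with a median log2 fold change of -0.44. At an unadjusted p under 0.05, 6 were lower, beside 6.10% of all genes. From 3 to 6 were lower over the fits that left out an animal. The CPM of these markers summed to between 1667 and 2696 in chow control and to between 1337 and 1834 in HF saline. Most of them (COL1A1, COL1A2, COL3A1, LUM, DCN and OGN) are also on the matrix list, and PDGFRA is on the matrix turnover list. The fibroblast values therefore largely repeat the matrix result and are not independent of it. Of 10 tested markers of smooth muscle cells and pericytes, the cells of vessel walls, 0 passed. At an unadjusted p under 0.05, 7 were lower, beside 6.10% of all genes, and from 4 to 6 in the fits that left out an animal. The median log2 fold change of these markers was -0.47. They summed to between 761 and 905 CPM in chow control and to between 602 and 631 CPM in HF saline. DCN, decorin, a fibroblast marker that is also on the matrix list, had 230.2, 193, 191 and 232 CPM in chow control and 183, 176, 125 and 155 CPM in HF saline (adjusted p = 0.255). MYH11, smooth muscle myosin, had 73.8, 52.7, 48.1 and 81.5 CPM in chow control and 36.6, 36.5, 30.9 and 23.01 CPM in HF saline (adjusted p = 0.251), and its deposited counts were not whole in 7 of the 8 animals. KCNJ8, a potassium channel subunit of pericytes, had 123, 154, 187 and 207 CPM in chow control and 99.9, 120.3, 122 and 129 CPM in HF saline (adjusted p = 0.198). The part of these cells in the matrix result was not tested.

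**Figure D3:**
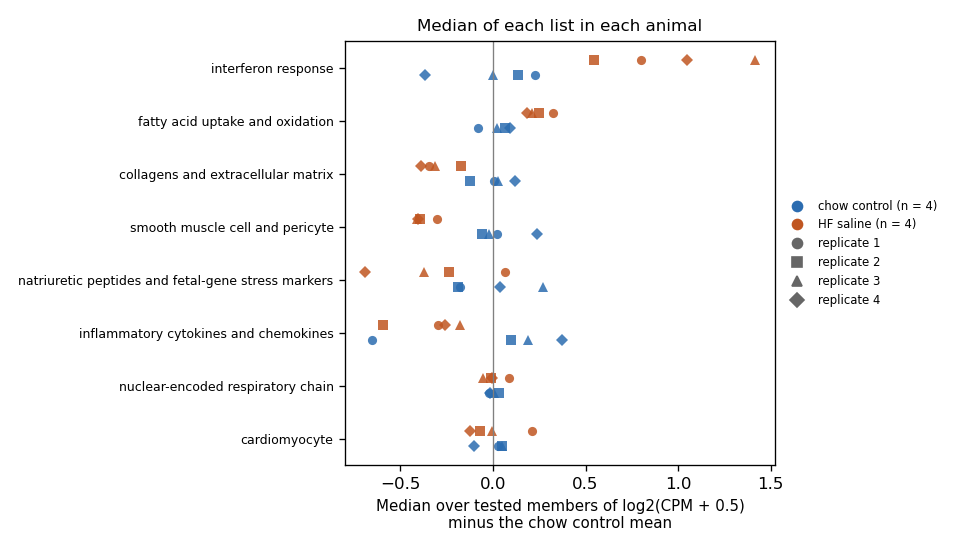
Median over the tested members of 6 pathway lists and 2 marker lists in each animal, as log2(CPM + 0.5) minus the mean of the 4 chow control animals (blue, chow control; orange, HF saline; point shape, replicate number). The groups separate for the interferon, fatty acid, matrix and smooth muscle lists, while for the stress, inflammatory, respiratory chain and cardiomyocyte lists they overlap; HF saline replicate 3 has the highest interferon median, at 1.42.

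Inflammatory cytokines and chemokines varied widely between the chow control animals. Of 16 tested genes 0 passed and 2, ICAM1 and VCAM1, were lower at an unadjusted p under 0.05, and the median log2 fold change was -0.85. ICAM1, the adhesion molecule that stops leukocytes on endothelium, had 19.1, 282, 27.4 and 161 CPM in chow control and 21.1, 19.8, 31.1 and 40.4 CPM in HF saline (adjusted p = 0.299). VCAM1, a second such molecule, had 24.00, 141, 28.1 and 88.8 CPM in chow control and 19.2, 15.1, 26.1 and 29.6 CPM in HF saline (adjusted p = 0.285). The chemokine CXCL10, added after its values were seen, had 6.89, 116, 15.4 and 105 CPM in chow control and 20.97, 9.57, 36.3 and 29.1 CPM in HF saline (adjusted p = 0.624). In all 3 genes, as in IRF1, chow control replicates 2 and 4 were high and the other controls lay near the HF saline animals. Without chow control replicate 4 the median of the list was -0.541.

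TNIP1, a partner of the deubiquitinating protein TNFAIP3 that restrains NF-kB signalling, fell. It had 207, 219, 169 and 231 CPM in chow control and 151, 137, 130.0 and 125 CPM in HF saline, 0.658 times the control level (log2 fold change -0.60, standard error 0.103, edgeR adjusted p = 0.0414, 3 of 8 fits). Its gene lies on chromosome 16 at 71926038 to 71979969, next to GPX3 at 71980467 to 71989011. GPX3, a secreted glutathione peroxidase, had 122, 130.4, 92.3 and 118 CPM in chow control and 99.6, 63.3, 61.2 and 61.97 CPM in HF saline. The groups overlapped through HF saline replicate 1, and GPX3 did not pass (adjusted p = 0.116). It passed in 1 of the 8 fits that left out an animal, and over those fits its log2 fold change ranged from -0.896 to -0.626. Whether strand was used in counting is not given in the sources used here, so reads at the boundary of neighbouring genes could fall to either.

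The other genes that fell have roles in transcription, the cytoskeleton and signalling. TLE3, a corepressor of transcription, had 17.4, 18.8, 22.2 and 16.4 CPM in chow control and 7.37, 10.2, 11.6 and 8.53 CPM in HF saline, and fell to 0.504 times (adjusted p = 0.0241, 5 of 8 fits). KANK1, an adaptor between adhesions and microtubules, had 100.1, 117, 128 and 96.6 CPM in chow control and 84.9, 71.3, 80.7 and 69.5 CPM in HF saline, and fell to 0.693 times (adjusted p = 0.0474, 3 of 8 fits). DPYSL2, which binds tubulin, had 112, 114, 129.9 and 119 CPM in chow control and 93.1, 74.4, 66.7 and 82.1 CPM in HF saline, and fell to 0.666 times (adjusted p = 0.04504, 2 of 8 fits). In all 3 the highest HF saline animal was below the lowest control.

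GAREM1, an adaptor of growth factor receptors, fell to 0.676 times from 43.5, 48.4, 37.4 and 41.7 CPM to 31.3, 27.2, 26.9 and 30.2 CPM (adjusted p = 0.0498, 1 of 8 fits). TMEM35A, a chaperone of nicotinic acetylcholine receptors, fell to 0.473 times from 23.2, 19.98, 15.7 and 29.4 CPM to 11.1, 10.5, 9.21 and 10.8 CPM (adjusted p = 0.0418, 2 of 8 fits). The TMEM35A values of the HF saline animals lay close together, and those of the controls were spread more widely.

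ART3 and NUP54 fell together and are uncertain as separate results. ART3, a membrane-bound member of the ADP-ribosyltransferase family, had 169, 182, 151 and 148 CPM in chow control and 106, 96.4, 86.96 and 102 CPM in HF saline, and had the smallest p-value of the genes that fell (log2 fold change -0.73, standard error 0.0986, edgeR adjusted p = 0.0171, 6 of 8 fits). NUP54, a protein of the nuclear pore channel, had 43.01, 42.4, 41.7 and 37.8 CPM in chow control and 23.3, 25.4, 26.8 and 29.5 CPM in HF saline (adjusted p = 0.04504, 0 of 8 fits). On chromosome 8 the span of ART3, 71673799 to 71795332, overlaps that of NUP54, 71792153 to 71833180, by 3180 bases. The deposited counts of both were not whole in 7 of the 8 animals, so reads had been divided between features. CXCL10, at 71693641 to 71695948, lies inside the span of ART3.

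AKAP6, the anchoring protein from which the vector's peptide derives and which gathers kinases and phosphatases at the nuclear envelope of heart muscle cells, did not differ detectably. It had 83.98, 80.7, 100.4 and 79.9 CPM in chow control and 99.4, 95.9, 98.2 and 88.6 CPM in HF saline. The groups overlapped, and the log2 fold change was 0.15 ± 0.0847 (SE, edgeR adjusted p = 0.529). Of 19 tested genes of the AKAP6 signalosome and cardiac kinases 0 passed, 2 were higher and 2 were lower at an unadjusted p under 0.05, and the median log2 fold change was -0.04. MEF2C, a transcription factor that this complex regulates, had 63.3, 67.98, 71.5 and 62.8 CPM in chow control and 84.3, 75.3, 81.4 and 80.3 CPM in HF saline (1.21-fold, adjusted p = 0.192). PPP3CA, a catalytic subunit of calcineurin, had 18.5, 12.9, 12.5 and 14.2 CPM in chow control and 21.4, 17.1, 22.2 and 16.96 CPM in HF saline (adjusted p = 0.295).

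The lists of contraction and of calcium handling had medians close to 0. Of 19 tested sarcomere genes 0 passed and 1, FLNC, was lower at an unadjusted p under 0.05, with a median log2 fold change of 0.0084. Over the fits that left out an animal this median ranged from -0.0929 to 0.0470, and from 1 to 4 genes were lower. In HF saline replicate 1 the median lay 0.249 above the chow control mean on the log2 scale. In HF saline replicates 2 to 4 it lay from -0.0846 to -0.126. FLNC, a filamin of the Z disc, had 2275, 1953, 3069 and 2255 CPM in chow control and 2059, 1609, 1566 and 1362 CPM in HF saline (adjusted p = 0.211). Of 23 tested genes of calcium handling and excitation 0 passed, with a median log2 fold change of 0.0079. At an unadjusted p under 0.05, 1 was higher and 4 were lower, beside 5.71% and 6.10% of all genes. In 1, CACNB2, all HF saline animals lay below all controls, beside 3.19%. ATP2A2, the calcium pump of the sarcoplasmic reticulum, had 3248, 3738, 3437 and 2969 CPM in chow control and 3766, 3884, 4453 and 3587 CPM in HF saline (1.17-fold, adjusted p = 0.403). CACNB2, a subunit of the calcium channel, had 21.95, 25.5, 24.7 and 19.4 CPM in chow control and 18.9, 14.1, 17.6 and 12.7 CPM in HF saline (adjusted p = 0.204). KCNH2, a potassium channel of repolarisation, had 133, 119.7, 113 and 90.9 CPM in chow control and 101, 76.5, 73.7 and 77.2 CPM in HF saline (adjusted p = 0.172).

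The mitochondrial respiratory chain takes up the electrons that fatty acid oxidation releases. Of its 39 tested nuclear-encoded genes 0 passed and 0 differed at an unadjusted p under 0.05, with log2 fold changes from -0.112 to 0.138. Of the 12 tested messenger RNAs that the mitochondrion itself encodes 0 passed, 11 had a log2 fold change above 0, and the median was 0.0992. ND2, a subunit of complex I, had 1766, 2196, 2057 and 2088 CPM in chow control and 2382, 2748, 2348 and 2540.0 CPM in HF saline (1.24-fold, adjusted p = 0.203). PPARGC1A, a coactivator of mitochondrial genes, had 91.1, 55.8, 76.7 and 83.5 CPM in chow control and 68.6, 62.9, 49.5 and 54.6 CPM in HF saline (adjusted p = 0.301).

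No gene of glucose use passed. The median log2 fold change of the 25 tested genes was -0.03. At an unadjusted p under 0.05, 0 were higher and 5 were lower, beside 5.71% and 6.10% of all genes. In 4 genes all HF saline animals lay below all controls, beside 3.19%. SLC2A4, the insulin-regulated glucose transporter, had 325, 228, 239 and 223 CPM in chow control and 217, 192, 219 and 181 CPM in HF saline (adjusted p = 0.3402). PGAM2, the muscle phosphoglycerate mutase, had 368, 371, 355 and 406 CPM in chow control and 311, 284, 292 and 317 CPM in HF saline (adjusted p = 0.243), and its deposited counts were not whole in all 8 animals. LDHB, the heart form of lactate dehydrogenase, ranged from 39.97 to 322 CPM in chow control and from 33.2 to 49.4 CPM in HF saline (adjusted p = 0.248). Since its counts also were not whole in all 8 animals, reads had been divided with another feature and its level is uncertain.

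Most genes of sterol and fatty acid synthesis had log2 fold changes below 0. Of 25 tested genes 0 passed, the log2 fold change was below 0 in 22, and the median was -0.26. At an unadjusted p under 0.05, 1 was higher and 4 were lower, beside 5.71% and 6.10% of all genes. SQLE, an early enzyme of sterol synthesis, had 4.72, 27.1, 13.02 and 14.8 CPM in chow control and 6.03, 2.98, 5.14 and 3.58 CPM in HF saline (0.295 times, adjusted p = 0.129). ABCG1, which exports cholesterol from cells, had 10.98, 2.62, 6.84 and 3.57 CPM in chow control and 12.6, 17.2, 13.96 and 14.9 CPM in HF saline (2.49-fold, adjusted p = 0.144). FASN, fatty acid synthase, had 55.1, 45.6, 41.99 and 51.5 CPM in chow control and 34.8, 31.6, 40.7 and 39.1 CPM in HF saline (adjusted p = 0.188). SQLE was lowest among the controls, and ABCG1 highest, in chow control replicate 1. SQLE and ABCG1 each passed in 1 of the 8 fits that left out an animal.

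Insulin and growth factor signalling held differences in both directions, with log2 fold changes from -1.06 to 1.05. Of 21 tested genes 0 passed, 2 were higher and 2 were lower at an unadjusted p under 0.05, with a median of -0.08. IGF1 had 2.55, 1.86, 1.63 and 1.49 CPM in chow control and 2.68, 3.25, 3.78 and 4.31 CPM in HF saline (1.88-fold, adjusted p = 0.233). IGFBP2, a binding protein of the insulin-like growth factors, had 9.06, 11.3, 11.1 and 10.7 CPM in chow control and 5.07, 2.89, 5.04 and 7.33 CPM in HF saline (0.4804 times, adjusted p = 0.134). In both genes the groups did not overlap.

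Stress, early response and clock genes gave no passing member. Of 20 tested genes of oxidative stress defence 0 passed, 1, CAT, was higher and 1, GPX3, was lower at an unadjusted p under 0.05. CAT, catalase, had 329.9, 368, 352 and 378 CPM in chow control and 469.7, 491, 421 and 436 CPM in HF saline (1.27-fold, adjusted p = 0.0877). Of 23 tested genes of the unfolded protein response and heat shock 0 passed. At an unadjusted p under 0.05, 1 was higher and 5 were lower, beside 5.71% and 6.10% of all genes. HSPB1, a small heat shock protein, had 931, 688, 880.4 and 982 CPM in chow control and 729.5, 635, 647 and 642 CPM in HF saline (adjusted p = 0.178), and its deposited counts were not whole in all 8 animals.

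Immediate early genes, which respond within minutes to growth factors and stress, mostly had log2 fold changes below 0 (16 of 21 tested). None passed and 2, EGR1 and NR4A3, were lower at an unadjusted p under 0.05, with a median log2 fold change of -0.32. EGR1 had 23.9, 54.4, 49.6 and 39.7 CPM in chow control and 14.9, 13.7, 11.1 and 13.2 CPM in HF saline (0.315 times, adjusted p = 0.192). NR4A3 had 55.4, 4.402, 25.2 and 9.22 CPM in chow control and 2.59, 7.49, 3.68 and 2.84 CPM in HF saline (adjusted p = 0.209). KLF15, a factor that glucocorticoids induce, had 79.9, 29.4, 52.9 and 36.1 CPM in chow control and 23.9, 27.5, 22.5 and 12.9 CPM in HF saline (0.4400 times, adjusted p = 0.192). Of 18 tested clock genes 0 passed and 0 differed at an unadjusted p under 0.05, with a median of -0.23 that was -0.0593 without chow control replicate 1.

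Of the lists not described above, none had a passing member by edgeR. Over all pathway and marker lists with a count of 0 by edgeR, here and above, except the collagens and matrix genes, limma-voom also called 0 members and the DESeq2 Wald test called at most 2 members of any list. Median log2 fold changes were 0.0011 for ketone and branched-chain amino acid use (15 genes tested), 0.042 for mitochondrial biogenesis and dynamics (20), 0.026 for complement and coagulation (17), 0.0058 for hypoxia and angiogenesis (21), -0.059 for the glucocorticoid and fasting response (16) and 0.074 for the cell cycle (17). The glucocorticoid and fasting median was 0.108 without chow control replicate 2 and 0.0634 without HF saline replicate 3. The cell cycle median ranged from -0.0814, without chow control replicate 2, to 0.422, without chow control replicate 1. Of the 36 lists with at least 3 tested members, 16 had a median whose sign turned when 1 animal was left out, so no direction is read from those near 0. Macrophage markers (9 tested) had a median of 0.026, adipocyte markers (6) 0.012, lymphatic endothelial markers (7) -0.19, conduction system markers (5) -0.58 and atrial cardiomyocyte markers (5) -0.26. Of the B and plasma cell, neutrophil, mast cell, erythrocyte, Schwann cell and neuron, mesothelial and skeletal muscle lists at most 4 markers each could be tested. Neutrophil markers summed to at most 6.35 CPM and B and plasma cell markers to at most 7.45 CPM in any of the 8 animals.

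**Figure D4:**
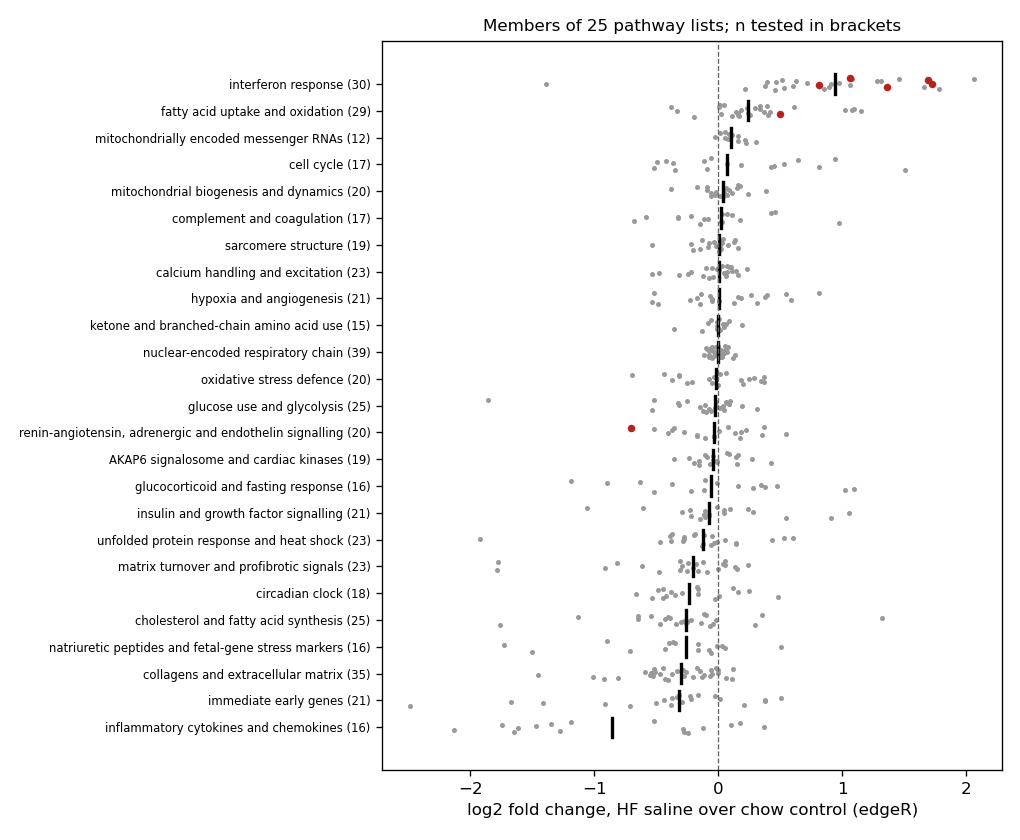
Log2 fold change of HF saline over chow control (edgeR) for every tested member of the 25 pathway lists, with the number tested in brackets; grey points did not pass, red points passed at an adjusted p under 0.05, and the black bar is the median of the list. OASL, with 0 counts in all chow controls, is left out of the interferon points; that list has the highest median, 0.94, and the inflammatory list the lowest, -0.85.

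The HF KBD animals, which shared diet and banding but received the vector, were set beside the same 4 chow controls, so these values and those above share their control samples. The median log2 fold change against chow control was 0.50 for the interferon list in HF KBD and 0.94 in HF saline, 0.20 and 0.24 for fatty acid oxidation, -0.07 and -0.30 for the collagens and matrix genes, and -0.03 and -0.47 for the smooth muscle and pericyte markers. It was -0.30 and -0.26 for the stress list. Members of the matrix and smooth muscle lists differed. In HF KBD and HF saline COL3A1 was at -0.53 and -0.59 and KCNJ8 at -0.57 and -0.51. COL1A1 was at -0.07 and -0.45 and MYH11 at 0.30 and -1.01. P4HA1, on neither list, was at -0.96 and -0.95. HERC5 had 18.04 ± 1.095 CPM, MX1 42.6 ± 4.23 CPM, HADHB 1619 ± 134 CPM, GPIHBP1 18.7 ± 3.93 CPM and NPR3 77.01 ± 10.02 CPM in HF KBD (SD, n = 4 each). The difference between the HF groups was not tested here.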

How the data were processed

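Poly(A) RNA of left ventricle was sequenced from 12 pigs, all with the same batch label. The authors deposited expected counts per gene, 1 column per animal. STAR 2.7.10a, RSEM 1.3.1 and the genome build Sscrofa11.1 are named in the submitters' processing notes. The annotation release and the use of strand are not given in the sources used here. Of the deposited gene values 4.54% were not whole (tolerance 0.005), as RSEM divides reads between features, so overlapping and near-identical genes are uncertain. The table held 35670 gene rows and 1 vector row, which was left out of library sizes and tests.

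Expected counts were rounded. Genes were kept with edgeR's filterByExpr (minimum count 10, minimum total 15), which left 13476. Libraries were scaled by TMM, and edgeR 4.0.16 (R 4.3.3) tested each gene with its robust quasi-likelihood F-test, with all 12 animals in one model and the contrast of HF saline minus chow control. P-values were adjusted over all tested genes by Benjamini-Hochberg. CPM were computed from TMM-scaled library sizes. Symbols were assigned to 15623 gene rows by gene identifier. Positions on Sscrofa11.1 come from a separate RefSeq table and were matched by symbol. Replicate numbers follow accession order and only name animals. Each library came from 1 animal, so p-values set the group difference against a spread between animals. That spread was estimated from all 12 animals, with information shared across genes. No pair of the 8 libraries agreed within sampling noise (chi-square per degree of freedom from 8.92 to 25.3 over 28 pairs). The functions were tested on simulated data.

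The comparison, the 25 pathway lists and the 17 marker lists (714 symbols, 660 matched) were chosen with earlier results of these data known. Lists are described by counts and medians, without a set test. Named genes are the 15 with the smallest p in each direction among those that passed, had a symbol and reached a mean of 5 CPM in 1 group (11 were available among the lower), from each list the members that passed, up to 3 with the smallest p and the 2 with the highest CPM, and AKAP6. Other genes given with values are marked as outside this rule or as chosen after their values were seen, apart from markers at 0. Alternatives were DESeq2 1.42.0 size factors and Wald test, limma 3.58.1 voom with quality weights, other filters, a model of the 2 groups, an adjusted p under 0.10, and leaving out each animal. A few genes that the rule names are not reported here. No sequences are printed.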

Additional observations from a re-analysis of the deposited data

Results flagged for a closer look

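Within each group of 4 animals, the gap between the highest or lowest animal and its nearest neighbour was divided by the range of the group, and a ratio above Dixon's 95% critical value for 4 samples set the animal apart. Of 216 groups of 4 tested this way, 15 passed, where chance gives about 1 in 20. HF saline replicate 1 accounted for 7. Its 10 most abundant genes took more of its counts (22.6%, ratio 0.863) than in the other animals, and it was lowest in its TMM factor (0.937, ratio 0.851), in its position on the first principal component (-11.3, ratio 0.970) and in its mean correlation with its own group (0.969, ratio 0.858). These 4 measures depend on each other. It was also the highest HF saline animal in GPX3 (99.6 CPM, ratio 0.946), KCNH2 (101 CPM, ratio 0.873) and HSPB1 (729.5 CPM, ratio 0.874).

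HF saline replicate 3 was the highest of its group in ZBP1 (25.6 CPM against 19.1 in the nearest, ratio 0.893) and the lowest in ND1, a mitochondrially encoded subunit of complex I (999 against 1098 CPM, ratio 0.858). HF saline replicate 2 had 1.99 CPM of the chemokine CXCL14 where the nearest animal had 0.183 (ratio 0.954). Without it the log2 fold change of CXCL14 was -3.76 in place of -1.62 and still did not pass (edgeR, adjusted p = 0.122).

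Among the chow controls, replicate 4 was lowest in ZNFX1 (63.6 against 92.4 CPM, ratio 0.878). Replicate 3 was highest in FBN2 (8.79 against 4.49 CPM, ratio 0.857) and in CD8A, a marker of cytotoxic T cells (1.38 against 0.638 CPM, ratio 0.840). Replicate 1 was highest in SLC2A4 (325 against 239 CPM, ratio 0.847) and lowest in ADIPOR2 (91.4 against 150.3 CPM, ratio 0.833).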

How the results depend on the processing

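The 35 genes (65.7% higher) became 262 with the DESeq2 Wald test (141 higher, 121 lower, 53.8% higher), with all 35 among them, 21 with limma-voom and quality weights (12 higher, 9 lower, 19 shared), 6 in a model of the 2 groups only (3 higher, 3 lower, 5 shared) and 74 at an adjusted p under 0.10 (49 higher, 25 lower). They were 35 with DESeq2 size factors and with a minimum of 1 CPM in 4 animals, and 52 without a filter (33 shared). Leaving out 1 animal gave from 3 to 72, and the cause was not tested. No paired analysis was possible because the replicate numbers follow accession order and do not come from the labels. Of the median fold changes of the 4 lists that the report leads with (interferon, fatty acid, matrix and stress), the fatty acid median went from 0.193 to 0.315 when 1 animal was left out, beyond the spread between animals at its upper end, without chow control replicate 4. The T and NK cell median was 1.19 without a filter, and the inflammatory median -1.29, as more members with few counts entered. For named genes, 1201 of the alternative values kept direction and side of the threshold, 177 lost and 30 gained the call, and 6 reversed. These 6 were LPL, at -0.00627 with limma-voom and from -0.0808 to 0.106 when 1 animal was left out, and COL4A1, from -0.0804 to 0.109 when 1 animal was left out; neither passed in any. Depth limits the genes under 5 CPM, where CLSTN3 and CD3E rest on 1 count in some animals.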
